A study of Mus musculus with 11 samples.

Results

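The genes described here are the enzymes and cofactors that make microRNAs (miRNAs), taken as a fixed list of names with no measured value in the rule: Drosha, Dgcr8, Ddx5 and Ddx17 (nuclear cropping), Xpo5 and Ran (export), Dicer1, Tarbp2 and Prkra (dicing), and Ipo8 (import). All 10 were present among the 39017 genes counted, and all 10 passed the filter on low counts in both tissues.

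MicroRNAs are cut from long primary transcripts by a nuclear complex called the Microprocessor, in which the RNase III enzyme Drosha works with the RNA-binding protein Dgcr8 and, for a subset of transcripts, with the DEAD-box helicases Ddx5 and Ddx17. The resulting hairpin leaves the nucleus with exportin 5 and Ran-GTP, and Dicer1, helped by the double-stranded RNA binding proteins Tarbp2 and Prkra, cuts it to the mature duplex that is loaded into an Argonaute. In neurons, mature miRNAs repress many transcripts through short matches between their 5′ seed and the 3′ untranslated region (UTR) of the target.

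The study sequenced polyadenylated RNA of the neocortex and of the CA1 region of the hippocampus of mice aged 13 to 14 weeks. Knockout (KO) animals carried the Camk2a-Cre transgene and the floxed Dicer allele on both chromosomes (Camk2a-Cre;Dicer flox/flox), so that Cre was driven by the promoter of an excitatory neuron kinase of the forebrain, and glia, vessels and most interneurons are expected to keep the allele. The genotype of the control animals is not given in the labels. For the neocortex, 3 male controls (animals D5129, D5134, D5135) were compared with 3 male knockouts (D5130, D5132, D5133). For the CA1, 3 controls (males D5134, D5135 and the female D5138) were compared with 2 male knockouts (D5130, D5133). Values below are CPM, read counts divided by the library size after scaling by edgeR's TMM factors, and a difference is KO less control on the log2 scale with its standard error (SE).

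Gene reads numbered 43144097 to 58329441 per neocortex library and 24806581 to 35684618 per CA1 library. The tissues were prepared with different kits (stranded and unstranded) on different runs, so tissue, kit and run cannot be told apart in any level set across them. The summed Y-linked genes of D5134, labelled male, stood at 76.4 CPM in the neocortex and 79.7 CPM in the CA1, against 167 to 205 CPM in the other male libraries. Xist was at 21.1 CPM in the CA1 library of the male D5133, against at most 3.21 CPM in other male libraries and 602 CPM in the female. The composition of the ERCC spike-in reads placed D5129, D5130 and D5132 in set 1 and D5133, D5134 and D5135 in set 2, each with both genotypes. The grouping was made to give 2 sets. Set 1 holds only 1 control (D5129) and set 2 only 1 KO library (D5133). A value or call within a set therefore rests on 1 library of 1 genotype.

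Against this background, the 10 genes stayed close to their control levels in the tissue average. In the neocortex 0 of 10 passed an adjusted p of 0.05 by edgeR, where 2.71% of the 16971 genes tested did, and 4 of 10 had an unadjusted p under 0.05, against 3049 of the 16971. DESeq2 called 0 of 10 as well, with 3 at an unadjusted p under 0.05, against 5.43% and 16.6% of all genes tested. In the CA1 0 of 10 passed by edgeR, where 3.89% of 18274 genes did, and 0 had an unadjusted p under 0.05, against 3159 of all genes (17.3%). There DESeq2 called 0, with 0 at an unadjusted p under 0.05, against 5.06% and 14.3% of all genes tested. The unadjusted counts of other lists further on are to be read beside these shares. The median log2 difference of the 10 genes was 0.088 in the neocortex and 0.0097 in the CA1, beside 0.0021 and -0.00041 over all genes tested. These tests do not show that the genes were equal between genotypes, and the intervals below give the sizes the data leave possible.

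**Figure D1:**
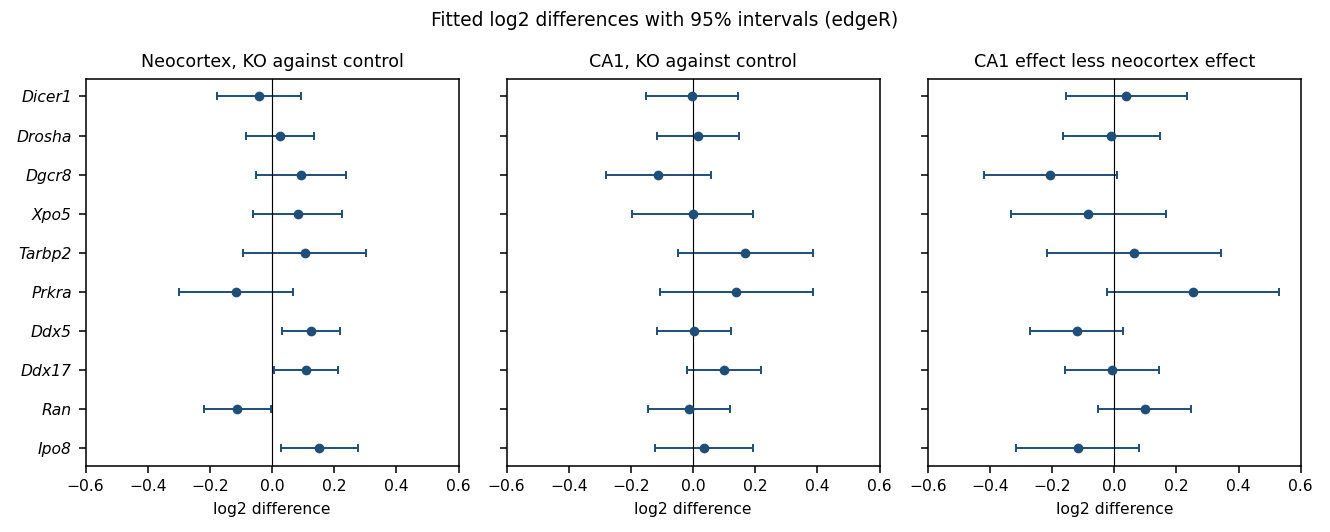
Log2 difference of each gene (points) with its 95% interval (bars) from edgeR, KO less control, in the neocortex (3 and 3 libraries) and the CA1 (2 KO and 3 control), and the CA1 difference less the neocortex difference. Each interval lies between -0.6 and 0.6, and those of Ddx5, Ddx17, Ipo8 and Ran in the neocortex do not contain 0 before adjustment.

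Because a loss of miRNAs acts on transcripts through seed matches, the longest annotated 3′ UTR of each gene was searched on the transcript strand for matches to 8 miRNA families known from brain. An 8mer match pairs with bases 2 to 8 of the miRNA and has an A after them, and a 7mer-m8 match pairs with bases 2 to 8 alone. A search for miR-124 was also planned but not made, since the RefSeq set used held no entry for it. The miRNAs whose 8mer matches occur in these genes are shown, with the seed in capitals and sequences from RefSeq.
mmu-miR-103-3p: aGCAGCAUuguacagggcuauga
mmu-miR-107-3p: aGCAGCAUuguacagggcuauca
mmu-miR-29a-3p: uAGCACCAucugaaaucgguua
mmu-miR-128-3p: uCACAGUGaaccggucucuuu
mmu-miR-138-5p: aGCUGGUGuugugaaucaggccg
The matching stretches of the transcripts follow, 5′ to 3′ from GENCODE M21, with the match in capitals and positions on GRCm38. They are shown because 4 of the 6 fall in Dicer1 itself.
Dicer1 and miR-103 and miR-107, chr12:104690169-104690190, minus strand: tgatgcttcatgtaATGCTGCA
Dicer1 and miR-29, chr12:104690391-104690412, minus strand: ctgcattttcccgtTGGTGCTA
Dicer1 and miR-128, chr12:104690349-104690370, minus strand: agtttaattttttgCACTGTGA
Dicer1 and miR-138, chr12:104688580-104688601, minus strand: ttcccgtgtacagtCACCAGCA
Dgcr8 and miR-103 and miR-107, chr16:18254044-18254065, minus strand: ttatatgtacagtcATGCTGCA
Ddx5 and miR-138, chr11:106780842-106780863, minus strand: gatttaagtaggatCACCAGCA
miR-103 and miR-107 share a seed and differ near the 3′ end, so a match cannot be assigned to either.

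Dicer1 held these 4 8mers and 7mer-m8 matches to miR-9 (ACCAAAG) and miR-125 (CTCAGGG) in a 3′ UTR of 3851 bases. Among 1780 UTRs of like length, 27.5% held a match of either kind to miR-103 and miR-107, 33.1% to miR-29, 45.3% to miR-128, 29.1% to miR-138, 31.0% to miR-9 and 29.3% to miR-125. Tarbp2, whose UTR has 334 bases, held a 7mer-m8 match to let-7, the only let-7 match among the 10 genes, where 2.88% of UTRs of like length hold one, and another to miR-103 and miR-107, held by 2.93%.
mmu-let-7a-5p: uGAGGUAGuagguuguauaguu
Tarbp2 and let-7, chr15:102523430-102523450, plus strand: cagaggtgccatctCTACCTC
The remaining 7mer-m8 matches were to miR-29 in Xpo5 and Prkra, to miR-128 in Ddx5 and Ipo8, to miR-9 in Ddx17, Ran and Ipo8, and to miR-26 in Ddx17. Drosha, with an annotated UTR of 169 bases, held none of these letters. A match is a stretch of sequence and not a measured site.

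Levels were compared between genes only per kilobase of exon. In the neocortex controls the helicases were far the most abundant, with Ddx5 at 149.5 ± 1.99 and Ddx17 at 52.5 ± 1.39 CPM per kilobase (SD, n = 3). Ran followed at 39.2 ± 0.967 and Drosha at 22.1 ± 0.785 CPM per kilobase. The other 6 genes lay much lower, with Xpo5 at 7.15 ± 0.549, Prkra at 6.99 ± 0.354, Dgcr8 at 5.40 ± 0.168, Ipo8 at 3.96 ± 0.173, Dicer1 at 3.75 ± 0.215 and Tarbp2 at 3.26 ± 0.0536 CPM per kilobase. Xpo5 and Prkra, and Ipo8 and Dicer1, did not differ beyond their spread. When length was taken from the longest transcript, the order of the first 4 was the same, but Ipo8 (10.3), Xpo5 (9.65) and Dgcr8 (9.62) stood above Prkra (8.78), and Dicer1 (6.37) and Tarbp2 (5.44) were again the lowest. CA1 controls gave 171 ± 4.47 CPM per kilobase for Ddx5, 49.3 ± 2.15 for Ddx17, 38.4 ± 0.413 for Ran, 21.6 ± 0.825 for Drosha, 8.14 ± 0.852 for Xpo5 and 3.55 ± 0.0432 for Tarbp2. There Prkra (6.08 ± 0.321) and Dgcr8 (5.90 ± 0.309) did not separate, nor did Ipo8 (4.43 ± 0.207) and Dicer1 (4.34 ± 0.206). Both pairs separated when length was taken from the longest transcript. Prkra then stood at 7.64 ± 0.403 and Dgcr8 at 10.5 ± 0.550, Ipo8 at 11.5 ± 0.539 and Dicer1 at 7.38 ± 0.350.

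**Figure D2:**
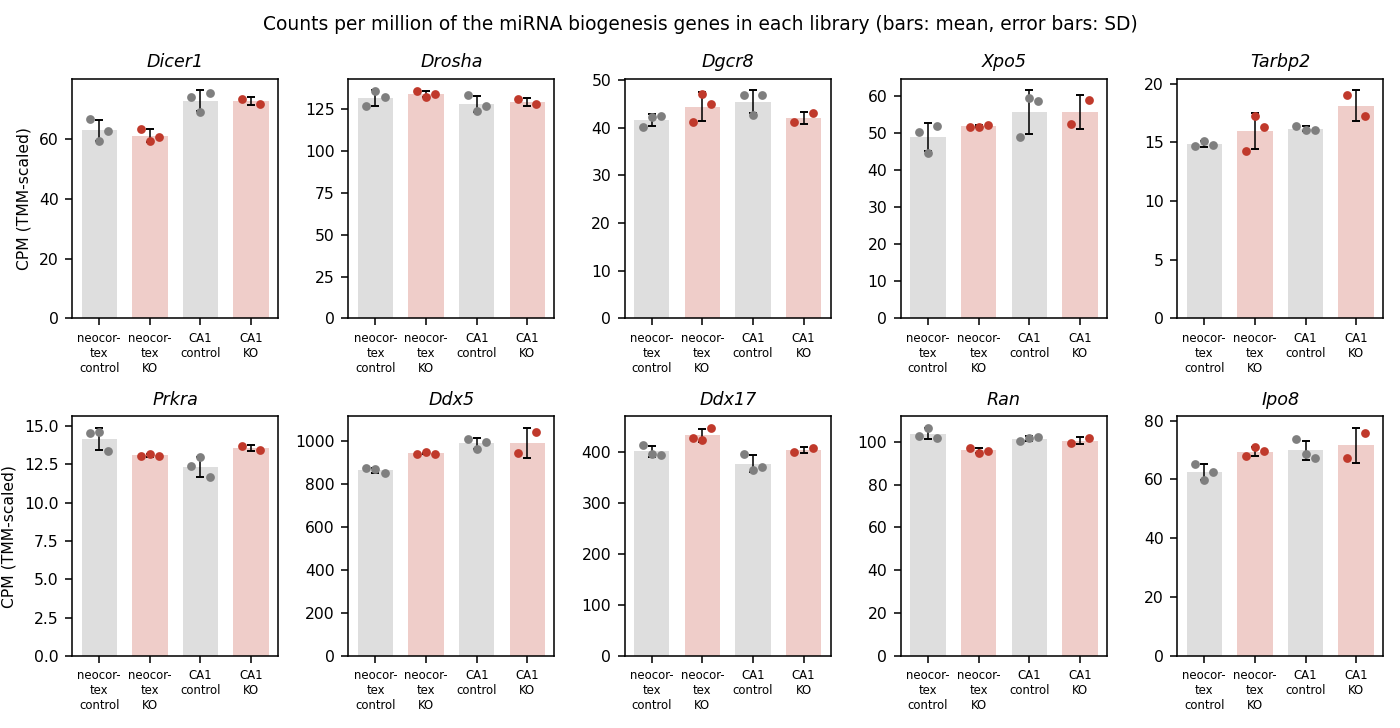
CPM of each gene (y axis, scaled by TMM, from 0) in every library (points), with the mean (bar) and SD (error bar) of each genotype and tissue. In most panels the KO and control points of a tissue overlap or nearly touch, and those of Ddx5, Ipo8 and Ran stand apart in the neocortex.

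The Microprocessor core was described first. Drosha (chr15:12824815-12935291, GRCm38), which cuts the primary transcript, gave 127, 136 and 132 CPM in neocortex controls, against 136, 132 and 134 CPM in knockouts. Libraries are named here and below in a fixed order, which is D5129, D5134, D5135 for controls of the neocortex, D5130, D5132, D5133 for its knockouts, D5134, D5135, D5138 for controls of the CA1 and D5130, D5133 for its knockouts. The groups overlapped fully, and the log2 difference was 0.025 (SE 0.050, adjusted p = 0.856 by edgeR), with a 95% interval of -0.083 to 0.13. CA1 values of Drosha were 133, 124 and 127 CPM for controls and 131 and 128 CPM for knockouts. Here too the KO values lay inside the control range, at 0.016 (SE 0.062, adjusted p = 0.939 by edgeR, interval -0.12 to 0.15).

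Dgcr8 (chr16:18253948-18289246), the cofactor that anchors Drosha on the hairpin, gave 40.1, 42.2 and 42.4 CPM in neocortex controls, against 41.1, 47.0 and 44.9 CPM in knockouts. D5130 lay among the controls, D5132 and D5133 above them, and the difference was 0.093 (SE 0.067, adjusted p = 0.521 by edgeR, interval -0.053 to 0.24). It was 0.15 without D5130 and 0.051 without D5132. In the CA1 it stood at 46.9, 42.7 and 46.7 CPM in controls, against 41.1 and 43.0 CPM in knockouts. The KO libraries lay near the lowest control, at -0.11 (SE 0.078, adjusted p = 0.523 by edgeR, interval -0.28 to 0.056). The exons of Dgcr8 overlap those of Trmt2a on the opposite strand over 825 bases (10.7% of Dgcr8 exon bases). Of the 50-base words of Dgcr8, counted on either strand, 26.3% occur in other genes, most of them in this Trmt2a overlap (18.2%). Gm49776, which overlaps Dgcr8 on the same strand, holds 6.53%, and the processed pseudogene Gm43555 4.31%. Reads of the Trmt2a overlap cannot be told apart in the unstranded CA1 libraries. The strand setting of the counting is not given, so whether the neocortex counts separate these reads is not known. Trmt2a itself differed by 0.18 (SE 0.071, adjusted p = 0.212 by edgeR) in the neocortex and by 0.029 (SE 0.079, adjusted p = 0.905 by edgeR) in the CA1, neither past the threshold, and its part in the Dgcr8 values was not tested.

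The helicases Ddx5 (p68) and Ddx17 (p72) are close relatives that also act in splicing and transcription. Ddx5 (chr11:106780355-106789185) gave 873, 867 and 851 CPM in neocortex controls, against 939.5, 946 and 939 CPM in knockouts. All 3 KO values were above all 3 controls, and both groups were tight. The difference of 0.13 (SE 0.043, interval 0.031 to 0.22) had an unadjusted p of 0.0132 and did not pass after adjustment (adjusted p = 0.148 by edgeR). It was 0.11 in spike-in set 1, 0.14 in set 2 and 0.13 without D5134. Ddx5 showed no such separation in the CA1, where controls were at 1011, 960.1 and 994 CPM and KO libraries at 941 and 1041 CPM, below and above every control. The CA1 difference was 0.0039 (SE 0.056, adjusted p = 0.983 by edgeR, interval -0.12 to 0.12).

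Ddx17 (chr15:79527736-79546741) gave 414, 396 and 394 CPM in neocortex controls, against 428, 423 and 448 CPM in knockouts. The KO libraries again lay above the controls, though D5132 exceeded D5129 by little. Its difference was 0.11 (SE 0.047, interval 0.0055 to 0.21) with an unadjusted p of 0.0405, and it did not pass (adjusted p = 0.254 by edgeR). The value was 0.040 in set 1, 0.18 in set 2 and 0.099 without D5134. In the CA1, Ddx17 stood at 395, 364 and 371 CPM in controls, against 399.6 and 408 CPM in knockouts. The lower KO library was just above the highest control, and the difference was 0.10 (SE 0.055, adjusted p = 0.387 by edgeR, interval -0.019 to 0.22). Of the 50-base words of Ddx5, 21.9% also occur in the processed pseudogene Gm12183, which was assigned 362 to 540 reads per neocortex library against 37028 to 54921 for Ddx5, and Ddx17 shared no such word with another gene.

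Export depends on Xpo5, the receptor for hairpin precursors, and on Ran, the GTPase that governs cargo binding by the importins and exportins. Xpo5 (chr17:46202782-46243598) gave 50.3, 44.8 and 52.1 CPM in neocortex controls, against 51.8, 51.8 and 52.3 CPM in knockouts. The KO libraries sat together at the upper end of a wider control range, with a difference of 0.083 (SE 0.066, adjusted p = 0.571 by edgeR, interval -0.061 to 0.23). The value was 0.023 without D5134, the lowest control, and 0.13 without D5135. CA1 controls stood at 49.1, 59.5 and 58.9 CPM and KO libraries at 52.6 and 59.2 CPM, a difference of -0.0012 (SE 0.091, adjusted p = 0.997 by edgeR, interval -0.20 to 0.19). Among the 10 genes Xpo5 had the widest spread between CA1 controls, with a coefficient of variation of 10.5%.

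Ran (chr5:129020069-129024323) gave 103, 106.6 and 102 CPM in neocortex controls, against 97.3, 94.7 and 95.9 CPM in knockouts. Every KO library was below every control, and the difference of -0.11 (SE 0.050, interval -0.22 to -0.0024) had an unadjusted p of 0.0458 and an edgeR adjusted p of 0.267. It was -0.095 in set 1, -0.11 in set 2 and -0.091 without D5134. Ran was nearly level over the 5 CA1 libraries, at 100.3, 102 and 102 CPM in controls, against 99.5 and 102 CPM in knockouts. That difference was -0.014 (SE 0.061, adjusted p = 0.945 by edgeR, interval -0.15 to 0.12). The pseudogene Gm13461 shares 15.4% of the 50-base words of Ran and was assigned 19 to 34 reads per neocortex library and 6 to 20 per CA1 library.

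Dicer1 (chr12:104687742-104751952) is the targeted gene, and its whole-gene count in bulk tissue includes cells that keep the allele and transcripts without the floxed part, so it does not test the deletion. In bulk tissue, fewer cells of a type and less RNA per cell cannot be told apart. Its values were 66.5, 59.3 and 62.4 CPM in neocortex controls against 63.3, 59.0 and 60.6 CPM in KO libraries, and 74.0, 68.7 and 75.2 against 73.3 and 71.6 CPM in the CA1. The groups overlapped in both tissues. Expressed as a percentage of the control level, the 95% interval of the KO effect ran from -11.5% to 6.60% in the neocortex and from -9.89% to 10.4% in the CA1, so a net change of the whole-gene count beyond these sizes lies outside the intervals.

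Tarbp2 (chr15:102518192-102523676), which binds Dicer1 and steadies its grip on the hairpin, gave 14.7, 15.1 and 14.8 CPM in neocortex controls, against 14.3, 17.3 and 16.4 CPM in knockouts. D5130 was below every control and the other KO libraries above, with a difference of 0.10 (SE 0.091, adjusted p = 0.609 by edgeR, interval -0.092 to 0.30). It was 0.18 without D5130 and 0.046 without D5132. In the CA1 the controls agreed closely at 16.4, 16.0 and 16.1 CPM, and the KO libraries stood at 19.1 and 17.2 CPM, both higher. The CA1 difference was 0.17 (SE 0.10, interval -0.049 to 0.39) and did not pass (adjusted p = 0.434 by edgeR), and it fell to 0.092 without D5130. The 432 to 652 Tarbp2 reads per CA1 library limit its precision, and 11.7% of its 50-base words also occur in the pseudogene Gm18584, which had no entry in the count table.

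Prkra (chr2:76629898-76648015), known as PACT, is the other Dicer1 partner and also activates the kinase PKR. It gave 14.5, 14.6 and 13.3 CPM in neocortex controls, against 13.0, 13.2 and 13.1 CPM in knockouts. All KO values were below the controls, with the control D5135 only just above them, and the difference was -0.12 (SE 0.084, adjusted p = 0.530 by edgeR, interval -0.30 to 0.068). The CA1 gave 12.4, 13.0 and 11.7 CPM in controls, against 13.7 and 13.4 CPM in knockouts. Here both KO libraries were above the controls, at 0.14 (SE 0.11, adjusted p = 0.604 by edgeR, interval -0.11 to 0.38). Prkra was the only gene of the list whose KO libraries lay below the controls without overlap in the neocortex and above them without overlap in the CA1.

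Ipo8 (chr6:148770683-148831467), an importin that carries Argonaute proteins with miRNAs into the nucleus, gave 65.2, 59.7 and 62.5 CPM in neocortex controls, against 67.9, 71.0 and 69.5 CPM in knockouts. Every KO library was above every control. The difference was 0.15 (SE 0.057, interval 0.029 to 0.28), with an unadjusted p of 0.0197 and an edgeR adjusted p of 0.181. It was 0.090 in set 1, 0.19 in set 2 and 0.12 without D5134. CA1 values overlapped, at 73.6, 68.7 and 67.4 CPM in controls, against 67.4 and 75.9 CPM in knockouts, with a difference of 0.035 (SE 0.074, adjusted p = 0.875 by edgeR, interval -0.12 to 0.19).

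Over the list, KO and control libraries did not overlap for 5 of 10 genes in the neocortex (Ddx5, Ddx17 and Ipo8 higher, Ran and Prkra lower in KO), where 24.0% of all genes tested did not overlap. In the CA1 this held for 3 of 10 (Tarbp2, Prkra and Ddx17, all higher in KO), where 33.7% of all genes did not. The intervals of the neocortex, read as percentages, left room for a rise of at most 23.2% and a loss of at most 18.7%, the bounds of Tarbp2 and Prkra. The CA1 bounds were 30.6% and -17.6%, those of Tarbp2 and Dgcr8. In size, the neocortex differences of the 10 genes stood between the 12.3 and 61.8 percentiles of all absolute differences. That comparison was not matched for level, and the 10 genes stood at the 45.8 to 99.5 percentiles of level.

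**Figure D3:**
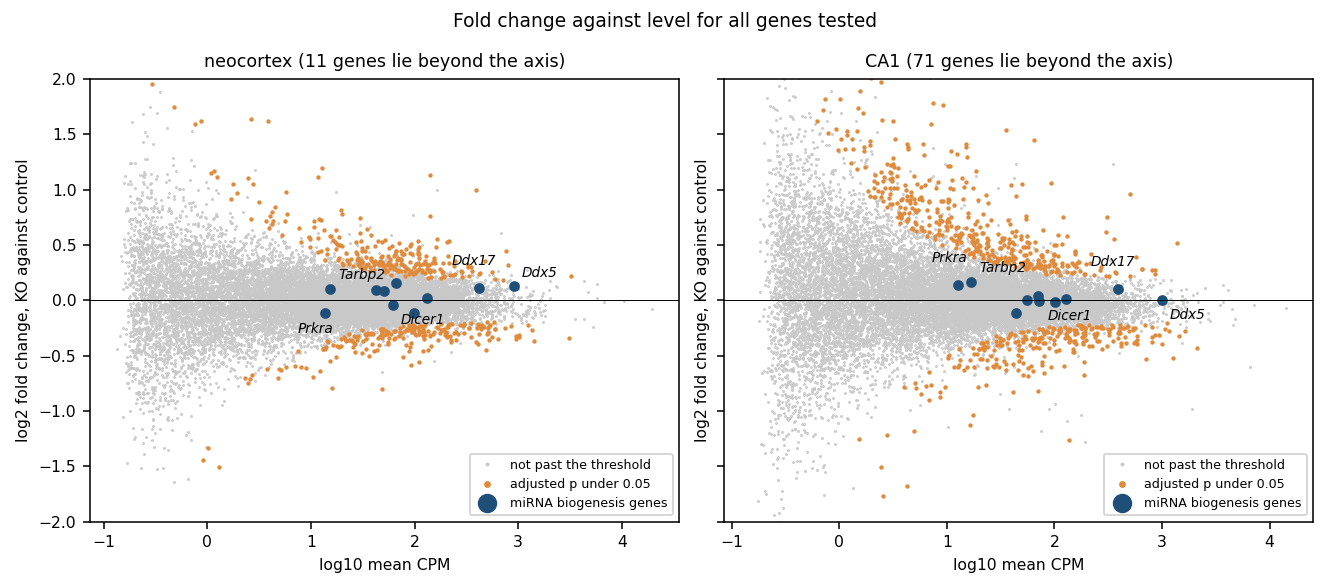
Log2 difference, KO less control (y axis), against log10 mean CPM (x axis) for all genes tested in the neocortex (16971) and the CA1 (18274), with genes past an adjusted p of 0.05 in orange and the 10 miRNA biogenesis genes in blue. The blue points lie along 0 in both panels, from Prkra and Tarbp2 near the middle of the level range to Ddx5 near its top.

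Whether the KO effect differed between the tissues was tested as an interaction over all 11 libraries. Of the 10 genes, 0 passed by edgeR and 0 had an unadjusted p under 0.05, where 0.0935% of 19256 genes passed and 9.51% had an unadjusted p under 0.05. DESeq2 called 0, with 1 at an unadjusted p under 0.05, against 0.826% and 9.42% of all genes tested. For Prkra the CA1 effect less the neocortex effect was 0.25 (SE 0.13, interval -0.022 to 0.53, adjusted p = 0.572 by edgeR). Dgcr8 went the other way at -0.21 (SE 0.10, interval -0.42 to 0.0088, adjusted p = 0.549 by edgeR). Ddx5 differed by -0.12 (SE 0.071, adjusted p = 0.634 by edgeR). Thus the opposite placement of Prkra in the tissues was not past the threshold.

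Ratios of partner genes within a library are free of library scaling and were tested by two-sided exact permutation, with 7 ratios per tissue and a smallest possible p of 0.1, so that none could pass 0.05. Xpo5 over Ran, in raw counts, was 0.490, 0.421 and 0.511 in the neocortex controls and 0.533, 0.547 and 0.545 in the KO libraries. The KO ratios were all above the controls, a log2 difference of 0.20 (exact permutation p = 0.1, adjusted 0.525). Prkra over Tarbp2 was 0.992, 0.967 and 0.904 in the neocortex controls and 0.914, 0.763 and 0.798 in the KO libraries. D5130 lay among the controls, and the difference was -0.21 (exact permutation p = 0.2, adjusted 0.525). The other 5 neocortex ratios overlapped between genotypes.

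The CA1 ratios that separated were others. Drosha over Dgcr8 was 2.84, 2.90 and 2.71 in the controls and 3.18 and 2.97 in the KO libraries, higher in both KO libraries by 0.13 log2. Dicer1 over Tarbp2 was 4.52, 4.29 and 4.67 in the controls and 3.85 and 4.16 in the KO libraries, lower by 0.17 log2. Ddx5 over Ddx17 was 2.56, 2.64 and 2.68 in the controls and 2.36 and 2.55 in the KO libraries, lower by 0.098 log2, with D5133 close to the control D5134. Each of these 3 had the smallest possible exact permutation p of 0.1 (adjusted 0.233), and the other 4 CA1 ratios overlapped. Of single genes tested, 24.0% in the neocortex and 33.7% in the CA1 did not overlap between genotypes. The share over other gene pairs was not computed, and several of the ratios share a member, so their count is a description only.

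The neighbours of these genes in the pathway were counted from lists of names, chosen with earlier results of these data known. For all genes tested, edgeR called 2.71% in the neocortex and 3.89% in the CA1, and DESeq2 5.43% and 5.06%. Of 20 Microprocessor partners and primary transcript binding proteins, 0 passed in the neocortex by edgeR (6 at an unadjusted p under 0.05, 0 called by DESeq2), with a median log2 difference of 0.072. In the CA1 1 of 20 rose, the scaffold attachment factor Safb2, from 96.7 to 115.5 CPM (0.26, SE 0.066, adjusted p = 0.0460 by edgeR), with a list median of 0.030. The Safb2 call was lost whichever CA1 library was left out (edgeR adjusted p from 0.0630 to 0.273), and in the neocortex Safb2 differed by 0.18 (SE 0.063, adjusted p = 0.162 by edgeR). Dhx9, a helicase that opens structured RNA, differed by 0.11 (SE 0.047, adjusted p = 0.232 by edgeR) in the neocortex and 0.031 (SE 0.077, adjusted p = 0.897 by edgeR) in the CA1. Of 16 tested genes for precursor tailing, turnover and let-7 regulation, 0 passed in either tissue by edgeR (3 and 4 at an unadjusted p under 0.05), with medians of -0.072 and -0.082. DESeq2 called 0 of the tailing and turnover genes in the neocortex and 1, lower in KO, in the CA1, and 2 of the Microprocessor partners, both higher, in the CA1.

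Among 21 other karyopherins, 1 rose in the neocortex, the main protein exporter Xpo1, from 108 to 129.5 CPM (0.26, SE 0.056, adjusted p = 0.0325 by edgeR), and 0 passed in the CA1 by edgeR (2 at an unadjusted p under 0.05). Their median was -0.0056 in the neocortex and -0.065 in the CA1. Of 7 Ran cycle proteins 0 passed in either tissue by edgeR (3 and 0 at an unadjusted p under 0.05), among them Rcc1, the exchange factor that charges Ran with GTP, at -0.24 (SE 0.082, adjusted p = 0.145 by edgeR) in the neocortex. Of 25 other DEAD-box helicases 1 rose in the neocortex, the translation factor Ddx3x, from 124 to 155 CPM (0.32, SE 0.074, adjusted p = 0.0455 by edgeR), and 0 passed in the CA1 (1 at an unadjusted p under 0.05). Of 9 other double-stranded RNA binding proteins 1 rose in the neocortex, the splicing cofactor Son, from 318 to 391 CPM (0.30, SE 0.065, adjusted p = 0.0337 by edgeR), and 0 passed in the CA1 (4 at an unadjusted p under 0.05). By DESeq2 these 4 lists gave the same counts, 1, 0, 1 and 1 in the neocortex and 0 each in the CA1. The 3 neocortex calls depended on single libraries. Xpo1 did not pass whichever library was left out (edgeR adjusted p from 0.0533 to 0.136), Ddx3x passed only without D5129 or D5132, and Son only without D5135. With a batch term for the spike-in set all 3 missed the threshold, at edgeR adjusted p of 0.0974, 0.105 and 0.0795.

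**Figure D4:**
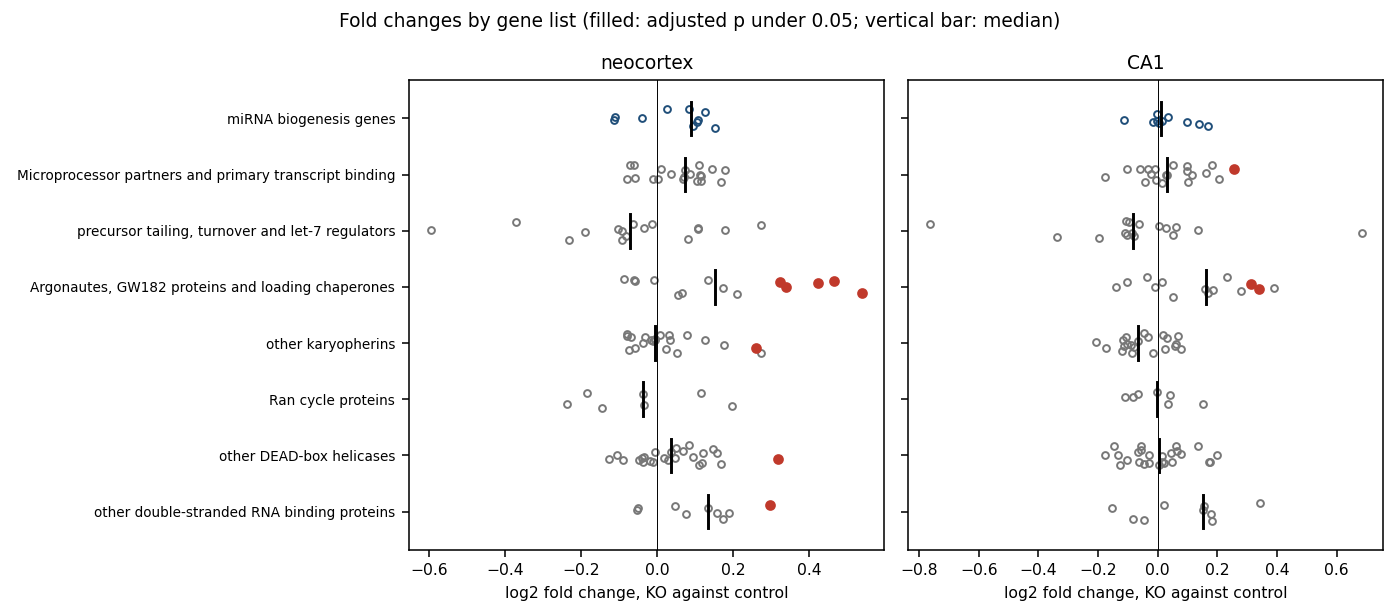
Log2 difference, KO less control (x axis), of each gene of the biogenesis list and of 7 lists of pathway neighbours (y axis), in the neocortex and the CA1, with filled points past an adjusted p of 0.05 and a vertical bar at each list's median. The biogenesis genes hold no filled point, and the list of Argonautes and GW182 proteins holds 5 in the neocortex and 2 in the CA1.

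Calls were also found among genes of the step after biogenesis. Of 14 Argonautes, GW182 proteins and loading chaperones, 5 rose in the neocortex and 2 in the CA1, with list medians of 0.15 and 0.16. Over all genes tested, edgeR called 2.71% and 3.89%. The list was chosen with earlier results of these data known, so its count of calls is a description and not independent support. The rises were Tnrc6a, Tnrc6b, Tnrc6c, Ago1 and Ago2 in the neocortex, at 0.32 to 0.54, and Tnrc6a and Tnrc6c in the CA1, at 0.31 and 0.34 (edgeR adjusted p of 0.0270 and 0.00835). All 5 neocortex calls were lost without D5133, 2 were left without D5132, and 4 without D5130. With a batch term for the spike-in set the 3 Tnrc6 genes passed, and Ago1 and Ago2 missed the threshold at edgeR adjusted p of 0.0518 and 0.0708. Within set 1 or set 2 alone, and with scaling by ERCC reads, 0 of the list passed by edgeR. Of the CA1 calls, both were lost without D5133 or D5138 and that of Tnrc6a without D5134, and 5 genes of the list passed there with no filter on low counts. Whether the Argonaute list differed from the biogenesis list was not tested.

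Cell type markers moved between the genotypes in the same libraries, and their part in the values above was not tested. Excitatory neuron markers, the cells in which Cre is expressed, summed to 6690 to 6770 CPM in neocortex controls and 5861 to 5983 CPM in KO libraries, with 2 of 8 called and both lower, and to 6851 to 7677 against 6214 to 6709 CPM in the CA1, again with 2 of 8 lower. Microglia markers summed to 493 to 517 against 523 to 578 CPM in the neocortex (5 of 12 rose) and to 350.2 to 370.01 against 480.2 to 548 CPM in the CA1 (8 of 12 rose). Oligodendrocyte markers summed to 3389 to 4115 against 2805 to 2820 CPM in the CA1 (6 of 6 fell), and to 2903 to 3012 against 2627 to 3122 CPM in the neocortex, where the groups overlapped. Astrocyte markers summed to 2095 to 2186 against 2609 to 2806 CPM in the CA1 (2 of 6 rose), where Gfap rose by 0.96 (SE 0.070). In the neocortex they summed to 2002 to 2090 against 2120 to 2369 CPM, and 0 of 6 passed by edgeR (3 at an unadjusted p under 0.05). Gfap differed there by 0.99 (SE 0.18) and did not pass (adjusted p = 0.0620 by edgeR). Meninges markers summed to 85.6 to 91.7 against 189.7 to 220.3 CPM in the CA1 (2 of 6 rose). In the neocortex, interneuron markers summed to 1166 to 1187 against 1228 to 1276 CPM (0 of 7 called). Striatum markers summed there to 141 to 166 against 118 to 121 CPM (2 of 6 fell). Those of the dentate gyrus and CA3 summed there to 140 to 149 against 126 to 129 CPM (2 of 5 tested fell). In the CA1, edgeR called no interneuron, striatum, or dentate gyrus and CA3 marker. The tissue labels fitted their markers in that CA1 pyramidal cell markers summed to 554 to 602 CPM in CA1 controls and 247 to 276 CPM in neocortex controls. These pyramidal cell markers were lower in KO, at 359.7 to 394 CPM in the CA1 (3 of 5 fell, with a median log2 difference of -0.65 and Wfs1 at -1.26) and 205 to 219 CPM in the neocortex (1 of 5 fell, Wfs1 at -0.58).

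The genes whose levels followed those of Dicer1 most closely were sought over the 11 libraries, with log2 CPM centred within each tissue, among 9747 genes of at least 10 CPM in both tissues. They were Rnf169, a ubiquitin ligase of DNA repair (Pearson r = 0.92), Arhgef3, a guanine nucleotide exchange factor (r = 0.92), and Dhx33, a helicase (r = 0.86). The libraries share animals and runs, the 3 were the highest of 9747 values, and no p is given. None of the other 9 biogenesis genes was among these 3.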

How the data were processed

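The deposited values are raw read counts per Ensembl gene, made by the authors. The submitters' processing notes list FastQC, GSNAP, SAMtools, bedtools and the build GRCm38, while versions, counting rule and strand setting are not given in the sources used here. The 10 genes, the lists of neighbours and the markers were chosen with earlier results of these data known. Symbols, positions, lengths and 3′ UTRs came from GENCODE M21, by gene identifier (37693 of 39017 matched), and miRNAs from RefSeq.

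KO was set against control in each tissue by edgeR 4.0.16 (TMM, filterByExpr, robust quasi-likelihood F-test) in R 4.3.3, adjusted by Benjamini-Hochberg over all genes tested, with a threshold of 0.05. The interaction used all 11 libraries and 4 group means. Fits with DESeq2 1.42.0, limma 3.58.1 voom, other scaling, no filter, spike-in sets and left-out libraries were alternatives. Ratios used exact permutation tests.

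Named genes were the 10 members, called list members (at most 4 per list and tissue by the smallest p) and the 3 genes most like Dicer1, and Ago2, Dhx9, Rcc1 and Trmt2a were added after their values were seen. On simulated counts the neocortex fit (16809 genes) recovered 14% of changes of 0.25 log2 and 58% of 0.5, and the CA1 fit (18044 genes) 2% and 52%. In each simulation 50 genes were changed at each size of 0.25, 0.5, 1 and 2 log2. The neocortex fit recovered 7, 29, 38 and 47 of them, beside 12 false calls. The CA1 fit recovered 1, 26, 38 and 43, beside 14 false calls.

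The labels name the same animal for both tissues of 4 animals. Deviations from group means correlated between the tissues of an animal with r from 0.193 to 0.410. With the CA1 of another control, the highest r was 0.191 for D5134 and -0.085 for D5135. The CA1 has only 2 KO libraries, so their deviations mirror each other. For D5130 and D5133 the r with the other animal is therefore of opposite sign by construction. No libraries of a group were copies (chi-square per gene from 9.99 to 22.1).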

Additional observations from a re-analysis of the deposited data

How the results depend on the processing

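None of the 10 genes passed in any alternative. Of 370 alternative values, 345 kept their sign and 25 reversed, and of 77 ratios with a library left out 9 reversed. ERCC scaling raised the median gene to 1.06 and put Dicer1 at 1.04, Prkra at 0.93 and Ran at 0.92. The other reversals came from leaving out a library. In the neocortex Dicer1 ranged from -0.080 to 0.0029 and Drosha from -0.00095 to 0.050. In the CA1 the ranges were -0.042 to 0.023 for Dicer1, -0.0078 to 0.046 for Drosha, -0.093 to 0.084 for Xpo5, -0.076 to 0.076 for Ddx5, -0.035 to 0.0022 for Ran and -0.057 to 0.12 for Ipo8. Interaction ranges were -0.024 to 0.068 for Dicer1, -0.062 to 0.022 for Drosha, -0.047 to 0.12 for Tarbp2 and -0.053 to 0.029 for Ddx17. Log2 ratios ranged from -0.0038 to 0.13 (Drosha/Dicer1) and -0.0023 to 0.043 (Ddx5/Ddx17) in the neocortex, and in the CA1 from -0.013 to 0.035 (Drosha/Dicer1), -0.083 to 0.034 (Prkra/Tarbp2), -0.063 to 0.088 (Xpo5/Ran) and -0.038 to 0.16 (Ipo8/Xpo5).

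The 460 genes called in the neocortex became 922 with DESeq2, 770 with no filter, 4 with ERCC scaling, 191 with a batch term for the spike-in set, 11 in set 1, 77 in set 2 and 19 (without D5133) to 430 with a library left out. The 710 in the CA1 became 1467 with no filter and 232 (without D5133) to 732. The 18 of the interaction became 159 with DESeq2, 37 with animal as a replicate block in limma voom, 12 in limma voom without the animal, and 1 to 31 with a library left out; the block changed no call of the 10 genes. The causes were not tested. The level of ERCC reads did not separate sets, so the planned batch term was replaced by sets from their composition, chosen after seeing the data. Prkra and Tarbp2, at 327 to 956 reads per library, had the widest intervals.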

Other observations

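Annotated miRNA hairpins lie inside the transcripts of Ddx5 and Dgcr8 and have entries of their own in the count table; they were singled out after their values were seen. Mir3064, in Ddx5, was assigned 1.73 to 2.54 reads per 1000 Ddx5 reads in the neocortex libraries and 20.9 to 23.6 in the CA1 libraries. Gm25994, also in Ddx5, had 5.19 to 6.57 and 22.2 to 25.03 reads per 1000 Ddx5 reads. Mir1306, in Dgcr8, had 5.11 to 8.45 and 22.6 to 38.4 reads per 1000 Dgcr8 reads, from only 11 to 17 and 28 to 54 reads per library. Gm24572, in Dgcr8, had 0.994 to 5.33 and 14.9 to 21.3. Every CA1 library was above every neocortex library for each of these 4 hairpins, and tissue, kit and run cannot be told apart. Mir693, in an intron of Xpo5, had 0 reads in all 11 libraries.

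Between genotypes, Mir3064, Gm25994 and Mir1306 in both tissues and Gm24572 in the CA1 were tested, and none passed; Gm24572 in the neocortex and Mir693 were below the filter on low counts. Mir3064 differed by 0.14 (SE 0.21, adjusted p = 0.804 by edgeR) in the neocortex and 0.085 (SE 0.097, adjusted p = 0.724 by edgeR) in the CA1. Gm25994 differed by 0.23 (SE 0.14, adjusted p = 0.419 by edgeR) and 0.055 (SE 0.089, adjusted p = 0.825 by edgeR), and Mir1306 by -0.087 (SE 0.40, adjusted p = 0.945 by edgeR) and -0.19 (SE 0.33, adjusted p = 0.841 by edgeR). Gm24572 differed by 0.11 (SE 0.38, adjusted p = 0.924 by edgeR) in the CA1.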
